A study of Nicotiana tabacum with 8 samples.

Results

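UPBEAT1 (unigene c112787_g1) and BHLH92 (unigene c71107_g1) are 2 transcription factors of the basic helix-loop-helix (bHLH) family, and their abundance was followed through all 8 leaf libraries of a cold stress experiment in tobacco, *Nicotiana tabacum*. They are 2 of the 135146 assembled transcripts (unigenes) in the expression table, and their names come from the study's annotation. Both were chosen from the same cold-against-control differences that are described here. UPBEAT1 stood in the authors' list of 30 transcription factors with the largest differences after cold, and BHLH92 was among 28 unigenes that they measured again by qRT-PCR. The differences between cold and control libraries are therefore given as a description, without a test.

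The libraries came from leaves of the cultivars CB-1 and K326 at the six-leaf stage, with 2 libraries in each of 4 groups. The library names CC and CT stand for control and cold in CB-1, and KC and KT for the same treatments in K326. Control plants stayed under normal growth conditions, whereas the others spent 1 day at 4 °C, and each sample pooled leaves of several plants. A difference may therefore be one in the cells that make up the leaf or in RNA per cell, which bulk libraries cannot tell apart. The labels do not say whether the 2 libraries of a group came from separate growth batches, so p-values measure only the spread between these samples.

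bHLH proteins bind DNA as dimers, through a basic stretch that recognises short E-box sequences, while the helix-loop-helix joins the partners. In Arabidopsis, UPBEAT1 represses peroxidase genes in the root tip, and so sets the balance of reactive oxygen species between dividing and elongating cells. BHLH92 is known in Arabidopsis as a gene induced by salt, drought and cold that takes part in tolerance to osmotic stress. Neither role was measured in these tobacco leaves.

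The qRT-PCR primers that the study designed for BHLH92 are shown because they are the pieces of its sequence by which this unigene can be found again. Both run 5′ to 3′. The forward primer has 21 bases, of which 11 are G or C, and the reverse primer has 20 bases, of which 10 are G or C.
BHLH92 forward primer: cgccgatacatttccatagcc
BHLH92 reverse primer: aatttcccagcaagccatgg
No other unigene in the table carried the component number of either transcript, so the assembly gave each of them as a single unigene.

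Values are log2(abundance + 1) as deposited, and differences are differences on that scale. The paper lists the reads of each library, fewest in CT1 and most in CT2. The table holds no read counts per unigene, so the number of reads behind a single value is unknown. An exact 0 may be an absent transcript or a failed estimate. Each library had from 41878 to 51331 unigenes above 0. Among the control libraries, likeness went against the cultivar labels. Over the 31884 unigenes tested, Pearson's correlation of CC1 was 0.961 with KC2 and 0.935 with its replicate CC2, and that of KC1 was 0.947 with CC2 and 0.913 with its replicate KC2. Comparisons of cultivars that use them compare libraries labelled CB-1 and K326.

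UPBEAT1 was well above 0 in every control leaf and close to 0 in every cold leaf. In CB-1 the control libraries CC1 and CC2 had log2 values of 4.20 and 3.92, and the cold libraries CT1 and CT2 had 0.536 and 0.475. In K326, KC1 and KC2 had 4.38 and 3.90, and KT1 and KT2 had 0.465 and 0.138. Cold and control libraries did not overlap. The lowest control library (KC2) lay 3.37 above the highest cold library (CT1), so the groups are apart whichever control libraries are set against which cold ones.

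Group means of UPBEAT1 were 4.06 ± 0.20 in CC and 0.51 ± 0.04 in CT, and 4.14 ± 0.34 in KC and 0.30 ± 0.23 in KT (log2 values, SD, n = 2). The difference between cold and control was −3.55 in CB-1 and −3.84 in K326, each with a standard error of 0.23. Relative to the median of all unigenes tested, which was −0.20 in CB-1 and −0.31 in K326, it was −3.35 and −3.53. With the logarithm undone, mean abundance was 15.8 ± 2.28 in CC and 0.420 ± 0.0424 in CT, so that the cold level was 2.67% of the control level. In K326 the corresponding means were 16.9 ± 4.13 and 0.240 ± 0.198, or 1.42%. The control level was 37.5 times the cold level in CB-1, with 31.4 to 44.5 over the pairs of single libraries. The same ratio was 70.2 in K326, with 36.7 to 197 over the pairs. In K326 the pairs with KT1 gave 36.7 to 52.0, overlapping those of CB-1, and the pairs with KT2, the library with the lowest value, gave 139 to 197, above them.

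BHLH92 had the opposite profile. It was listed at 0 in CC1, CC2, KC1 and KC2, and was above 0 in every cold library. Its log2 values in the cold were 2.72 in CT1 and 2.23 in CT2, and 4.12 in KT1 and 2.55 in KT2. KT1 stood above the others, whereas KT2 lay between both CB-1 libraries, so the cultivars overlapped. Group means in the cold were 2.48 ± 0.35 in CT and 3.33 ± 1.11 in KT (log2 values, SD, n = 2). With the logarithm undone they were 4.65 ± 1.35 in CT and 10.6 ± 8.12 in KT. Because the control libraries are listed at 0, no fold change is given. On the log2 scale the differences from control were 2.48 in CB-1 and 3.33 in K326, each with a standard error of 0.49, and 2.68 and 3.64 relative to the median of all unigenes tested.

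**Figure D1:**
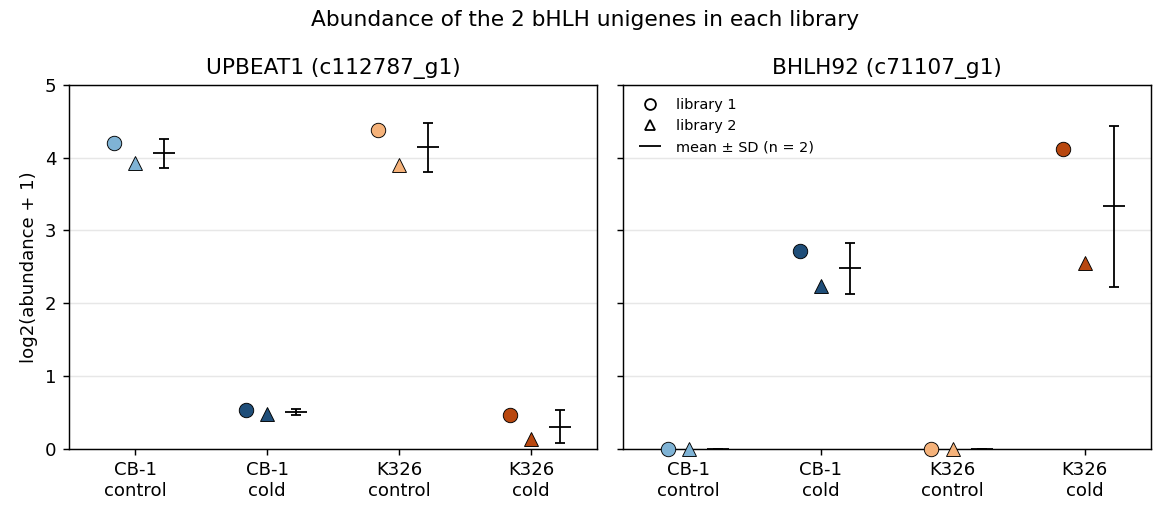
Log2(abundance + 1) of UPBEAT1 (left) and BHLH92 (right) in the 8 libraries, with library 1 of each group as a circle, library 2 as a triangle, and the group mean ± SD (n = 2) as a black bar. UPBEAT1 lies between 3.90 and 4.38 in the control libraries and between 0.14 and 0.54 in the cold libraries, and BHLH92 is at 0 in all control libraries and between 2.23 and 4.12 in the cold.

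For BHLH92 the 2 KT libraries were 1.56 log2 units apart, where the median gap between these libraries over all unigenes tested was 0.28. This gap was wider than that of 96.0% of unigenes tested, and wider than that of 97.9% of the 3411 unigenes whose KT mean lay within 0.5 of its own. In CT its replicates were 0.49 apart, against a median of 0.31. In the cold the replicates of UPBEAT1 lay closer together than those of BHLH92, 0.06 apart in CT and 0.33 in KT. In the control groups they were 0.28 apart in CC and 0.48 in KC, where BHLH92 was listed at 0. The median gaps over all unigenes tested were 0.21 in CC and 0.24 in KC, so the gaps of UPBEAT1 were above the median in CC, KC and KT. In each of the 4 groups the library of UPBEAT1 numbered 1 was the higher, an arrangement that 1125 of the unigenes tested (3.53%) shared.

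Both profiles were set among all other unigenes. After cold, 15.5% of all unigenes tested rose in CB-1 and 17.4% fell, while in K326 these shares were 14.7% and 19.5% (limma, Benjamini-Hochberg adjusted p under 0.05 and a difference over 1). These shares stand beside both members because their own differences were the ground for choosing them, and nothing is read from them. Ordered by size, the difference of UPBEAT1 was the 150th of 18163 negative ones in CB-1 and the 84th of 19001 in K326. That of BHLH92 was the 1359th of 13424 positive ones in CB-1 and the 633rd of 12663 in K326.

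A profile at 0 in all control libraries and above 0 in all cold libraries was found in 1821 unigenes, 5.71% of those tested, BHLH92 included. The mean of its 4 cold libraries was 2.91 on the log2 scale, above the median of 1.61 in that set, and 250 of the set had a higher mean. KT1 was the highest library in 583 of them (32.0%), as for BHLH92, and in 397 both KT libraries lay above both CT libraries, which they did not for BHLH92. The profile of UPBEAT1 was looked for among abundant unigenes only. Of 4999 unigenes with a log2 value of at least 3.5 in every control library, 37 (0.740%) had at most 0.6 in every cold library. UPBEAT1 was 1 of only 2 among these 37 that were still above 0 in all cold libraries, and the only one with a name in the lists used here. The limits of 3.5 and 0.6 were set around the values of UPBEAT1 after these were seen. The share of 0.740% is therefore not comparable with that of 5.71%, and no rarity is read from it.

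**Figure D2:**
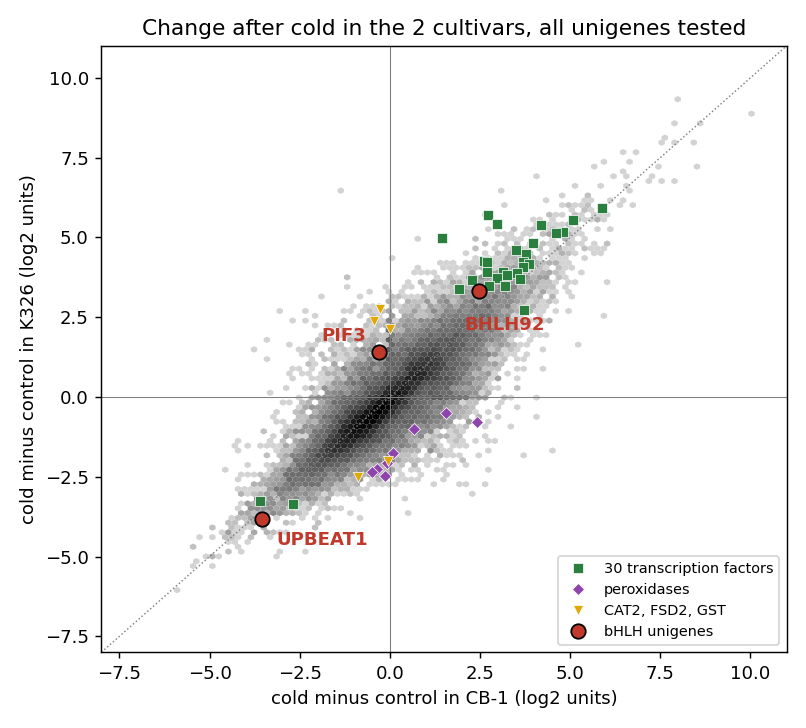
Difference between cold and control (log2 units) in CB-1 (horizontal axis) and K326 (vertical axis) for all 31884 unigenes tested (grey, darker where more unigenes fall on a log scale), with bHLH unigenes as red circles, the other transcription factors of the authors' list of 30 as green squares, 8 peroxidases as purple diamonds and CAT2, FSD2 and GST unigenes as yellow triangles; the dotted line marks equal differences. UPBEAT1 (−3.55, −3.84) and BHLH92 (2.48, 3.33) lie near that line on opposite sides of 0, while PIF3 (−0.29, 1.41) lies off it.

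Among the 30 transcription factors, UPBEAT1 had the most negative difference in K326 and the second most negative in CB-1. TCP19 (c68026_g1), of the TCP family of growth regulators, came before it in CB-1 with −3.61. MYB39 (c82962_g2), a MYB factor, followed with −2.70 in CB-1 and −3.34 in K326. Of the other 29, the test called 24 as risen and 2 as fallen for CB-1, against 27 and 2 for K326. The shares called over all unigenes tested were 15.5% up and 17.4% down for CB-1, against 14.7% and 19.5% for K326. This list was picked for such differences in these libraries and is not independent evidence of them. The medians of these 29 were 3.26 and 4.17.

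Of the 27 unigenes in the qRT-PCR set other than BHLH92, 15 were called as risen and 2 as fallen for CB-1. For K326 these counts were 20 and 1, and the medians were 2.43 and 2.42. Over all unigenes tested, the shares called were 15.5% up and 17.4% down for CB-1, against 14.7% and 19.5% for K326. The authors picked this set, and the paper states that it includes genes already tied to cold. Its counts are therefore not independent evidence. The 20 include ARR6 (c67085_g1) and GAI (c74180_g1), which would not have passed the filter on low values without their KT libraries. BHLH92 was the 14th in CB-1 and the 11th in K326 when all 28 were ordered from the most positive difference. Its neighbours in CB-1 were DREB2A (c73886_g1) with 2.62 and DREB1B (c70702_g2) with 2.43, both factors that bind the cold- and drought-responsive DRE element. In K326 they were MYB306 (c44821_g1) with 3.91 and COR413 (c70842_g1), a cold-regulated membrane protein, with 3.13. The list of cold-related genes names 20 unigenes, 17 DREB and 3 COR413. Of these, 7 were called as risen and 2 as fallen for CB-1, against 8 and 5 for K326, with medians of 0.99 and 1.29. The authors compiled it for a known link to cold, so it is not independent evidence either. DREB1F (c24612_g1), called as risen for CB-1, would not have passed the filter on low values without its CT libraries. For K326 the same holds for DREB3 (c59493_g2), called as fallen, without its KC libraries.

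Whether the cultivars differed in either gene was tested on contrasts that were not the ground for choosing them. With 2 libraries against 2, an exact permutation test cannot give a p-value that passes the threshold, so limma was fitted over all unigenes. In the cold, 0.405% of unigenes tested (129) differed between K326 and CB-1, and neither member was among them. UPBEAT1 had a difference, K326 minus CB-1, of −0.20 (standard error 0.23, 95% interval −0.77 to 0.36, limma adjusted p = 0.820). BHLH92 had a difference of 0.86 (standard error 0.49, 95% interval −0.35 to 2.06, limma adjusted p = 0.552). The fit shares 1 spread over the 4 groups, and BHLH92 has no spread in the control groups, where it is listed at 0. With the cold groups only, its standard error was 0.68, so the interval of the main fit may be too narrow. The interval for UPBEAT1 depends on the pseudocount and was −1.86 to 0.37 with 0.1 in place of 1. That for BHLH92 extends to 2.06, so a higher level in K326 was not detectable at this spread, which does not show that it was absent.

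The size of the BHLH92 difference moved with single libraries. Without KT2 it was 1.64, and without KT1 it was 0.07. Without CT1 it was 1.10 and without CT2 it was 0.61. With a library left out its group has 1 library, which is assumed to vary like the other groups, and leaving out KT1 or KT2 removes the widest gap between replicates from that spread. Over all alternatives its limma adjusted p ranged from 0.200 to 1. For UPBEAT1 the difference ran from −0.37 without KT1 to −0.04 without KT2. With a pseudocount of 0.1, which spreads out values near 0, it was −0.74 (standard error 0.45). Its limma adjusted p ranged from 0.592 to 1 over the alternatives.

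**Figure D3:**
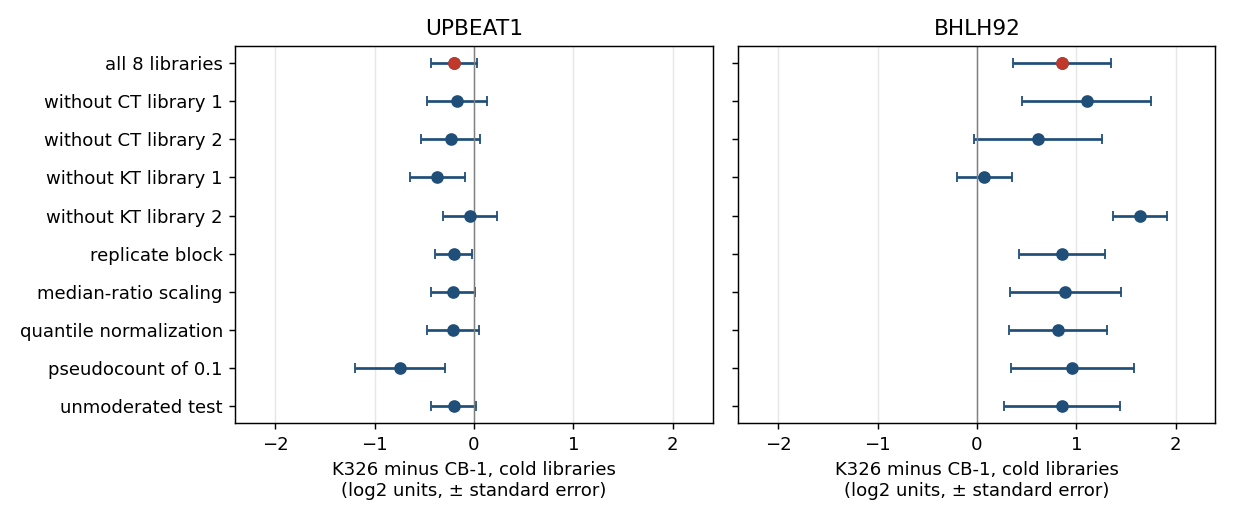
Difference between K326 and CB-1 in the cold libraries (log2 units, ± standard error) for UPBEAT1 (left) and BHLH92 (right) with all 8 libraries (red) and under alternatives (blue), among them each cold library left out in turn. For BHLH92 the difference is 0.86 with all libraries, 0.07 without KT1 and 1.64 without KT2, and for UPBEAT1 it stays below 0 in the settings drawn.

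Between the control libraries labelled K326 and CB-1, 0% of unigenes passed the threshold in limma, with 1127 at an unadjusted p under 0.05 and 13 called by an unmoderated test. UPBEAT1 differed by 0.08 (95% interval −0.49 to 0.65, limma adjusted p = 1), and the sign of this difference turned without CC2 or KC1 and with another scaling of the libraries. Its closest control libraries were CC2 and KC2, 0.02 apart, and its most distant were KC1 and KC2, 0.48 apart. CC1 and CC2 were 0.28 apart. BHLH92, listed at 0 in all of them, gave no comparison.

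For the difference between the cold responses of the cultivars (interaction contrast), 0% of unigenes passed in limma, 2934 had an unadjusted p under 0.05 and 143 were called by the unmoderated test. The response of UPBEAT1 in K326 minus that in CB-1 was −0.28 (standard error 0.33, 95% interval −1.09 to 0.52, limma adjusted p = 0.875), and −0.83 with a pseudocount of 0.1 (standard error 0.64, 95% interval −2.41 to 0.75). For BHLH92 it was 0.86 (standard error 0.70, 95% interval −0.84 to 2.56, limma adjusted p = 0.797). This difference was 1.64 without KT2 and 0.07 without KT1. Neither response was shown to differ between cultivars, and neither interval shows that they were alike.

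The unigenes most like each member were found by Pearson's correlation of log2 values over the 8 libraries. This is a description: the points fall into cold and control libraries, and any unigene with a large cold difference shares that step. For UPBEAT1, 397 of 31883 other unigenes had a correlation over 0.99, led by c73435_g4 (0.9985), c73954_g1 (0.9982), and c64015_g1, c14318_g2 and c64168_g1 (0.9981 each). None of these has a name in the lists used. The unigene c14318_g2 was closest in size of difference too, with −3.30 in CB-1 and −3.40 in K326, from levels of 4.72 to 5.05 in the control libraries.

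Among 406 other named unigenes, TCP19 was the most like UPBEAT1, at 0.984. Its log2 values were 4.13 in CC1, 3.74 in CC2, 4.13 in KC1 and 3.99 in KC2, and 0.01 in CT1, 0.63 in CT2, 0.79 in KT1 and 0.80 in KT2. These lie close to those of UPBEAT1 in most libraries, with the cold libraries in another order. COR413I (c81086_g1), a cold-regulated chloroplast membrane protein, followed at 0.964, with smaller differences of −0.64 and −0.78. The 2 DREB3 unigenes c71296_g1 (0.962) and c67134_g1 (0.955) and HST (c69634_g2, 0.953), an enzyme of phenylpropanoid synthesis, completed the first 5. The most opposite named unigenes were HSFA6b (c58192_g1, −0.993), a heat shock factor, ELF4 (c63831_g1, −0.992), a component of the evening clock, and DREB2C (c74172_g1, −0.991). All 3 were listed at 0 in every control library, as BHLH92 was.

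For BHLH92, 56 unigenes had a correlation over 0.99, led by c75350_g4 (0.9979), c81160_g4 (0.9978), and c67168_g3, c36649_g1 and c28393_g1 (0.9977 each), all listed at 0 in the control libraries and highest in KT1. Of these, c67168_g3 was the nearest in level, with log2 values of 3.002 in CT1, 2.75 in CT2, 4.53 in KT1 and 3.10 in KT2. The most alike named unigene was MYB306, at 0.987, with 3.58 in CT1, 3.27 in CT2, 4.59 in KT1 and 3.24 in KT2. It was listed at 0 in the control libraries other than CC2, where it had 0.57.

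ABR1 (c81178_g1, 0.983) and RAP2-6 (c81178_g3, 0.982) came next, both ethylene response factors. They carry the same component number, so they may share reads and are not separate evidence. WRKY6 (c83950_g2, 0.978), a factor linked in Arabidopsis to senescence and defence, and GAD3 (c71079_g2, 0.976), a glutamate decarboxylase that makes GABA, completed the first 5. All 5 of these named unigenes were highest in KT1, where BHLH92 was highest too. GAD3 had the widest gap between the KT libraries among them, with 6.10 in KT1 and 4.09 in KT2. The most opposite named unigene was MYB39, at −0.993, which had 0 in KT1 and 1.57 in KT2.

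**Figure D4:**
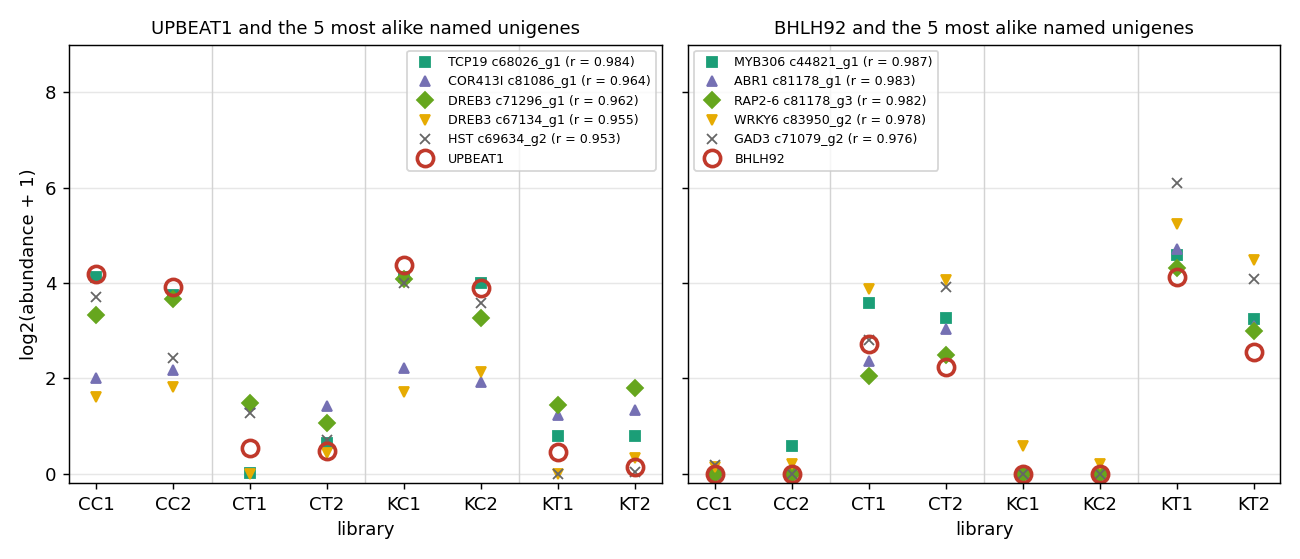
Log2(abundance + 1) in the 8 libraries for UPBEAT1 (left, red rings) and BHLH92 (right, red rings) with the 5 named unigenes most like each by Pearson's correlation over the libraries (filled markers and crosses). TCP19 lies near UPBEAT1 in most libraries (r = 0.984), and MYB306, ABR1, RAP2-6, WRKY6 and GAD3 share with BHLH92 their highest value in KT1.

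The third bHLH unigene in the lists was PIF3 (c83207_g6), a factor that binds light-activated phytochrome. CC1 and CC2 had log2 values of 0.88 and 1.76, and CT1 and CT2 had 0.95 and 1.10, a difference of −0.29 in CB-1 (limma adjusted p = 0.499). KC1 and KC2 had 1.18 and 0.68, KT1 and KT2 had 2.34 and 2.33, and in K326 it rose by 1.41 (limma adjusted p = 0.0170). Without KC2, KT1 or KT2 its limma adjusted p was 0.0832, 0.0749 and 0.0628, and with no filter on low values it was 0.0505, past the threshold in none of these. Over all alternatives it ranged from 0.0102 to 0.0832. PIF3 comes from an annotated sheet that the authors ordered by the difference between the cultivars in these libraries. Neither its contrast between the cultivars nor its p-value within a cultivar is therefore independent evidence. The peroxidases and the other enzymes of reactive oxygen species described next come from the same sheet, and this holds for their p-values too. Only 1999 rows of that sheet were used. The lists therefore favour unigenes whose cold difference is larger in 1 cultivar and smaller or opposite in the other.

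Peroxidases are the targets that UPBEAT1 represses in Arabidopsis roots, and 8 peroxidase unigenes were named. In CB-1, 2 of the 8 rose, 0 fell (0 at an unadjusted p under 0.05 and 0 by the unmoderated test) and 6 did not pass, with a median difference of 0.00 (−0.20 over all unigenes tested). PNC1 (c82714_g3) rose by 2.42 (limma adjusted p = 0.0245), from 0.75 in CC1 and 0.96 in CC2 to 3.05 in CT1 and 3.498 in CT2. PER16 (c69608_g1) was higher by 1.57, from 0 in CC1 and CC2 to 1.01 in CT1 and 2.13 in CT2. It would not have passed the filter on low values without its CT libraries, where it is high. Its difference is therefore given without a test, although the count of 2 includes it. The count of 2 was 0 without CC1, CC2 or CT2 and 1 without CT1, KT1 or KT2.

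In K326, 0 of the 8 peroxidases rose (0 at an unadjusted p under 0.05 and 0 by the unmoderated test), 2 fell and 6 did not pass. All 8 differences were negative, as were those of 19001 of the 31884 unigenes tested, with a median of −1.91 (−0.31 over all unigenes tested). The 8 are not separate evidence. The PER21 unigenes c62047_g1, c62047_g2 and c62047_g3 carry the same component number, as do the PER12 unigenes c59904_g1 and c59904_g2, so they may share reads. A second PNC1 unigene (c64119_g2) was lower by 2.49, with 3.58 in KC1, 1.497 in KC2 and 0.11 in KT1, and listed at 0 in KT2. It would not have passed the filter on low values without its KC libraries, where it is high. Its difference is therefore given without a test, although the count of 2 includes it. PER21 (c62047_g3) fell by 2.36 (limma adjusted p = 0.0193), with 3.26 in KC1, 2.61 in KC2 and 1.15 in KT1, and listed at 0 in KT2. The count of 2 was 0 without KC1 or without KT2. In KT2, 7 of the 8 peroxidases were listed at 0, against 1 in KT1, and in the control libraries 5 were at 0 in CC1, 1 in CC2, 1 in KC1 and 0 in KC2. The part of these single libraries in the peroxidase counts was not tested further. Over all unigenes tested, 15.5% rose in CB-1 and 19.5% fell in K326, and 2 of 8 is near these shares, so nothing about the peroxidases is read from the counts. The difference between the cultivars in these unigenes was the ground on which their sheet was ordered, and it was not tested.

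The other 5 unigenes for enzymes that handle reactive oxygen species gave 0 calls in CB-1 in limma, against 32.9% of all unigenes tested. At an unadjusted p under 0.05 there were 0 too, and 0 by the unmoderated test. For the 3 glutathione transferases among them little else was possible, as they had at most 0.90 in any CB-1 library. Nothing is read from this count. In K326, the catalase CAT2 (c24063_g1) fell by 2.01 (limma adjusted p = 0.00391), with 2.51 and 2.65 in the control libraries and 0.21 and 0.92 in the cold libraries. The chloroplast iron superoxide dismutase FSD2 (c67714_g1) fell by 2.52 (limma adjusted p = 0.00557). The 3 glutathione transferases c58688_g2, c58688_g3 and c26439_g1 had differences of 2.75, 2.38 and 2.14 in K326 and were listed at 0 in CT1 and CT2. They passed the filter on low values only through the KT libraries, where they are high, so these differences are given without a test. The first and second share a component number and may share reads.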

How the data were processed

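Leaf RNA of *N. tabacum* cultivars CB-1 and K326 was sequenced in 4 groups of 2 libraries. The authors assembled the reads with Trinity, mapped them with bowtie, estimated abundance with RSEM and deposited log2(abundance + 1) for 135146 unigenes. The scaling behind the abundance and the tool versions are not given in the sources used here. The paper's methods name a t-test.

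Unigenes that reached a log2 value of 1 in 2 or more libraries (31884) were fitted with limma 3.58.1 (R 4.3.3), as 4 group means over 8 libraries, with trended moderation and Benjamini-Hochberg adjustment over all of them. A call needed an adjusted p under 0.05 and a difference over 1. The fit was tested on simulated data. Tables and figures used Python 3.11.15, pandas 2.3.3 and matplotlib 3.10.9.

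Members and lists (30 transcription factors, 28 qRT-PCR unigenes, 20 DREB-related unigenes, peroxidases, other enzymes of reactive oxygen species and bHLH unigenes) were chosen with earlier results of these data known. Named unigenes were the members, unigenes of their components, the 5 most alike in all and among named ones, the bHLH, peroxidase and reactive oxygen lists, and the neighbours in size of difference in the other lists. The most opposite named unigenes were added after their values were seen. Alternatives were a pseudocount of 0.1, other filters, median-ratio scaling, quantile normalization, an unmoderated test, a fit of the compared groups only, the replicate number as a block, and leaving out each library.

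The RefSeq gene table of the species matched 0 unigene identifiers, so no genome position is given.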

Additional observations from a re-analysis of the deposited data

How the results depend on the processing

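The cold differences depended on the treatment of low values. For UPBEAT1 they were −4.93 in CB-1 and −5.75 in K326 with a pseudocount of 0.1, and −3.34 and −3.53 with median-ratio scaling. For BHLH92 they were 5.54 and 6.50 with a pseudocount of 0.1, and with a library left out they ranged between 2.23 and 2.72 in CB-1 and between 2.55 and 4.12 in K326. The control difference of UPBEAT1 between the cultivars turned to −0.019 with median-ratio scaling and to −0.016 with quantile normalization, and ran from −0.16 to 0.32 with a library left out. No test of either member between the cultivars passed the threshold under any alternative run. With median-ratio scaling the median difference of all unigenes was 0.07 in CB-1 and 0.05 in K326, in place of −0.20 and −0.31.

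The peroxidase count in CB-1 was 0 with no filter on low values and with the unmoderated test, 1 with the stricter filter and with a fit of the compared groups only, and 0 to 2 with a library left out. In K326 it was 0 with no filter and with the unmoderated test, 1 with a fit of the compared groups only, and 0 to 2 with a library left out. The 129 unigenes that differed between the cultivars in the cold were 0 with either other filter, with the cold groups only, with the replicate block and with any library left out, and 217 with the unmoderated test, 225 with quantile normalization and 260 with median-ratio scaling. The causes were not tested. The unknown number of reads behind a value limits every value near 0.

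The replicate numbers were not taken as pairs: correlations of same-numbered deviations between groups ran from −0.38 to 0.04. With the replicate number as a block, the peroxidase count in K326 was 1 and no call on either member changed: the cold difference between the cultivars was −0.20 for UPBEAT1 and 0.86 for BHLH92. With the control libraries paired crosswise, chosen after seeing the data, 0 unigenes were called between the labelled controls and 1499 had an unadjusted p under 0.05, against 0 and 1114 with the same-numbered pairs.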
